A study of Mus musculus with 13 samples.

Results

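A set of 10 protein-coding genes that flank Tmem184b on mouse chromosome 15 was measured in the hippocampus of wild type mice and of mice with a gene trap in Tmem184b. The 10 genes were Pick1, Pla2g6, Maff, Csnk1e, Kcnj4, Kdelr3, Ddx17, Cby1, Tomm22 and Josd1. They were chosen by name for their position on the chromosome, from 25025 genes in the deposited tables. The rule uses no measured value, but the choice was made with earlier results of these data known. Another 5 genes of the tables lie between the outermost members and are not in the set. RNA of one hippocampal sample per mouse was sequenced in 4 groups: wild type C57BL/6 at 5 months (n = 4), TMEM184B mutant (GT/GT) at 5 months (n = 3), wild type C57BL/6 at 15 months (n = 3) and TMEM184B mutant (GT/GT) at 15 months (n = 3). GT stands for a gene trap, an insertion that captures the splicing of its host gene, and the methods name the allele Tmem184bGt(IST10294F4) and place it on the C57BL/6 background, with in-house C57BL/6 mice, littermates where possible, as controls. The mutation is constitutive, so every hippocampal cell type carries it. By the methods the wild types at 15 months were all female and the mutants of both sexes. Sex and genotype therefore cannot be fully told apart at that age. At 5 months both genotypes held both sexes. The labels do not give the sex of each mouse.

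A gene trap or knockout allele is selected together with the stretch of chromosome around it, and an insertion can also act on transcription next to it, so the neighbours of a disrupted gene are commonly checked in such mice. The genes around Tmem184b have unrelated functions: they encode a phospholipase, a kinase, a potassium channel, a transcription factor, an RNA helicase and proteins of the synapse, the secretory pathway, the cilium and the mitochondrion. The question answered here is whether the levels of these neighbours differed between the genotypes, at each age.

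In the GRCm38 annotation (the assembly also called mm10) the genes span 459 kb, from base 79229173 to base 79687919 of chromosome 15. Pick1, Pla2g6 and Maff lie before Tmem184b (79360684 to 79403569, minus strand), and the other 7 lie after it. Maff, on the plus strand, ends 1607 bases from the last base of Tmem184b, and both genes run towards each other. Csnk1e begins on the other side, 14.3 kb away, followed by Kcnj4 at 80.1 kb, Kdelr3 at 113 kb, Ddx17 at 124 kb, Cby1 at 256 kb, Tomm22 at 267 kb and Josd1 at 271 kb. Pla2g6 lies at 32.3 kb and Pick1 at 111 kb. Of the 10 genes, 5 are on the plus strand and 5 on the minus strand. The 3′ ends of Kdelr3 and Ddx17 overlap by 4 bases, and since the strandedness of the libraries is not given in the sources used here, reads at that junction could not be assigned to one of them by strand.

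Promoter windows of 300 bases, 250 before and 50 after a transcription start, were taken from RefSeq on GRCm38.p6, where all 10 genes had at least one (17 windows in all). A few are printed here, 5′ to 3′ on the strand of the gene, to show where transcription starts in the genes described most closely: the disrupted gene, the one neighbour that passed the test, the neighbour nearest to the disrupted gene, and a start shared by a pair of genes. The first of 4 Tmem184b windows (28 to 41 CpG dinucleotides) lies at chr15:79403254-79403553 (minus strand, 37 CpG against a median of 7 over 32851 windows) and the first of 2 for Ddx17 at chr15:79546692-79546991 (minus strand, 27 CpG, with 14 in the other), and in both the capitals mark the 50 bases after the start.
Tmem184b: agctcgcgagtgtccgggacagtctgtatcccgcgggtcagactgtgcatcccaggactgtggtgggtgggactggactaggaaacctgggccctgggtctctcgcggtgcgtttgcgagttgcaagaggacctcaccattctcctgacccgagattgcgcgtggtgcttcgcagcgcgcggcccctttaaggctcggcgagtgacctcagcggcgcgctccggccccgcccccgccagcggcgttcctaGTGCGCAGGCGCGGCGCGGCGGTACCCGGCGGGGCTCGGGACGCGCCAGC
Ddx17: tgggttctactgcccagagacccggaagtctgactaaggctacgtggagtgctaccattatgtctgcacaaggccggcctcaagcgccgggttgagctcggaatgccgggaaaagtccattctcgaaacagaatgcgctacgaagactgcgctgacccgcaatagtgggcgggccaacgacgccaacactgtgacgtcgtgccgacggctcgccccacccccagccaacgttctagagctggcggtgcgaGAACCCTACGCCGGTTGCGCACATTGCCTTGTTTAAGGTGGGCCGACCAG
One of the 3 Maff windows, chr15:79347270-79347569 (plus strand), holds TGACGTCA, the palindromic cyclic AMP response element, shown in capitals. This motif reads the same on both strands, was found in 1.79% of the 32851 windows, and was in no other window of the 10 genes.
Maff: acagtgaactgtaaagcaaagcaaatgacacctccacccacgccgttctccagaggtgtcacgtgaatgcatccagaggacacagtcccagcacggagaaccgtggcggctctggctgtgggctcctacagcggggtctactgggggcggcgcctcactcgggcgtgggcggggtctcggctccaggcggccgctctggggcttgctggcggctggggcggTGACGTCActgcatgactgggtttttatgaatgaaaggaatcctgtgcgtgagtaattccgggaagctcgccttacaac
The Cby1 window, chr15:79658977-79659276 (plus strand), overlaps that of Fam227a, which is transcribed the other way. In the gene annotation used for the positions above, not in RefSeq, 242 bases lie between the starts of these genes. The capitals mark the 230 bases that both windows cover.
Cby1: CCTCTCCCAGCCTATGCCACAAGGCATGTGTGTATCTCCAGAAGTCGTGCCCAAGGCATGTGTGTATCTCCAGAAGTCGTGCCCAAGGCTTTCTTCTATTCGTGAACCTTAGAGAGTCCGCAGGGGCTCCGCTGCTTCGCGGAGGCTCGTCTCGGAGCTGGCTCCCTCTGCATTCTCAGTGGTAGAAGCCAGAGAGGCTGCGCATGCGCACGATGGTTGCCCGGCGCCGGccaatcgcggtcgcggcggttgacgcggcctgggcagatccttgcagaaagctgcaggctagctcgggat

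All values are DESeq2-normalized counts per gene as the authors deposited them, and no level is compared between the ages, since each age was normalized in its own table. Genotypes were compared on the log2(normalized count + 1) scale with limma, a linear model that shares its estimate of the spread across genes, over genes with a mean of at least 10, a scale that understates the change of genes with low counts. Adjusted p-values are two-sided and Benjamini-Hochberg adjusted over all genes tested, and "called" means an adjusted p under 0.05. Nothing in the labels says more of the replicates than that each is a separate hippocampus sample, so p-values measure the spread between these samples. The sum of normalized counts was 28086279 to 32383546 over the 13 libraries, but reads behind each value are unknown, and no counting error is given. Markers of hippocampal neurons (8 genes) summed to 221730 to 238858 in wild types at 5 months, where every mutant was higher (241554 to 293236), and overlapped at 15 months (229599 to 265960 in wild types, with mutants at 259052 to 294202). None of the 8 was called at 5 months and 1 was called at 15 months, lower in mutants, against 2.27% and 6.02% of all genes. No marker of any cell type read here was at 0 in a library. Markers of the choroid plexus, an epithelium next to the hippocampus, summed to 74297, 3213, 87770 and 164775 in wild types at 5 months and to between 706 and 3019 in the mutants. At 15 months that sum was 28604 in mutant replicate 3 and between 773 and 2113 in the 5 other libraries. Astrocyte markers summed to 28104 to 31235 in wild types at 5 months, where the mutants had 37520 to 38821, and oligodendrocyte markers to 130188 to 146175 in wild types at 15 months, where the mutants had 101496 to 119388. At 5 months 3 of 6 choroid plexus markers were called, lower in mutants, and 1 of 4 astrocyte markers, higher in mutants. At 15 months 2 of 4 oligodendrocyte and 1 of 4 microglia markers were called lower, and 1 of 4 endothelial markers higher. Over all genes the shares called were 2.27% and 6.02%. Beyond these and the neuron marker above, no cell type marker was called. The part of these markers in the results was not tested.

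The disrupted gene was first read in every sample. Tmem184b, a transmembrane protein, had normalized counts of 2415, 2329, 2356 and 2475 in wild types at 5 months and of 45.0, 43.2 and 31.3 in mutants. At 15 months the wild types had 2346, 2346 and 2413 and the mutants 36.6, 29.4 and 57.8. The level of Tmem184b thus matched the label of all 13 libraries. It fell to 1.66% of wild type at 5 months and to 1.74% at 15 months.

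Among the 10 neighbours, one, Ddx17, was called at 5 months and none at 15 months. At 5 months that is 1 of 10 members, lower in mutants, where 2.27% of the 15563 genes tested were called. At 15 months it is 0 of 10 by limma, where 6.02% of 15541 genes were called. At an unadjusted p under 0.05 there were 2 members at 5 months (Ddx17 and Kcnj4, against 20.5% of all genes) and 4 at 15 months (Pla2g6, Maff, Ddx17 and Cby1, against 28.8%). The genotypes did not overlap for 2 members at 5 months, against 18.5% of all genes, and for 4 at 15 months, against 34.1%. Since 1 gene of the 10 moves each of these shares by 10 percentage points, the counts are read as no more than a description of the cluster. All 10 members passed the filter on low values at both ages.

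**Figure D1:**
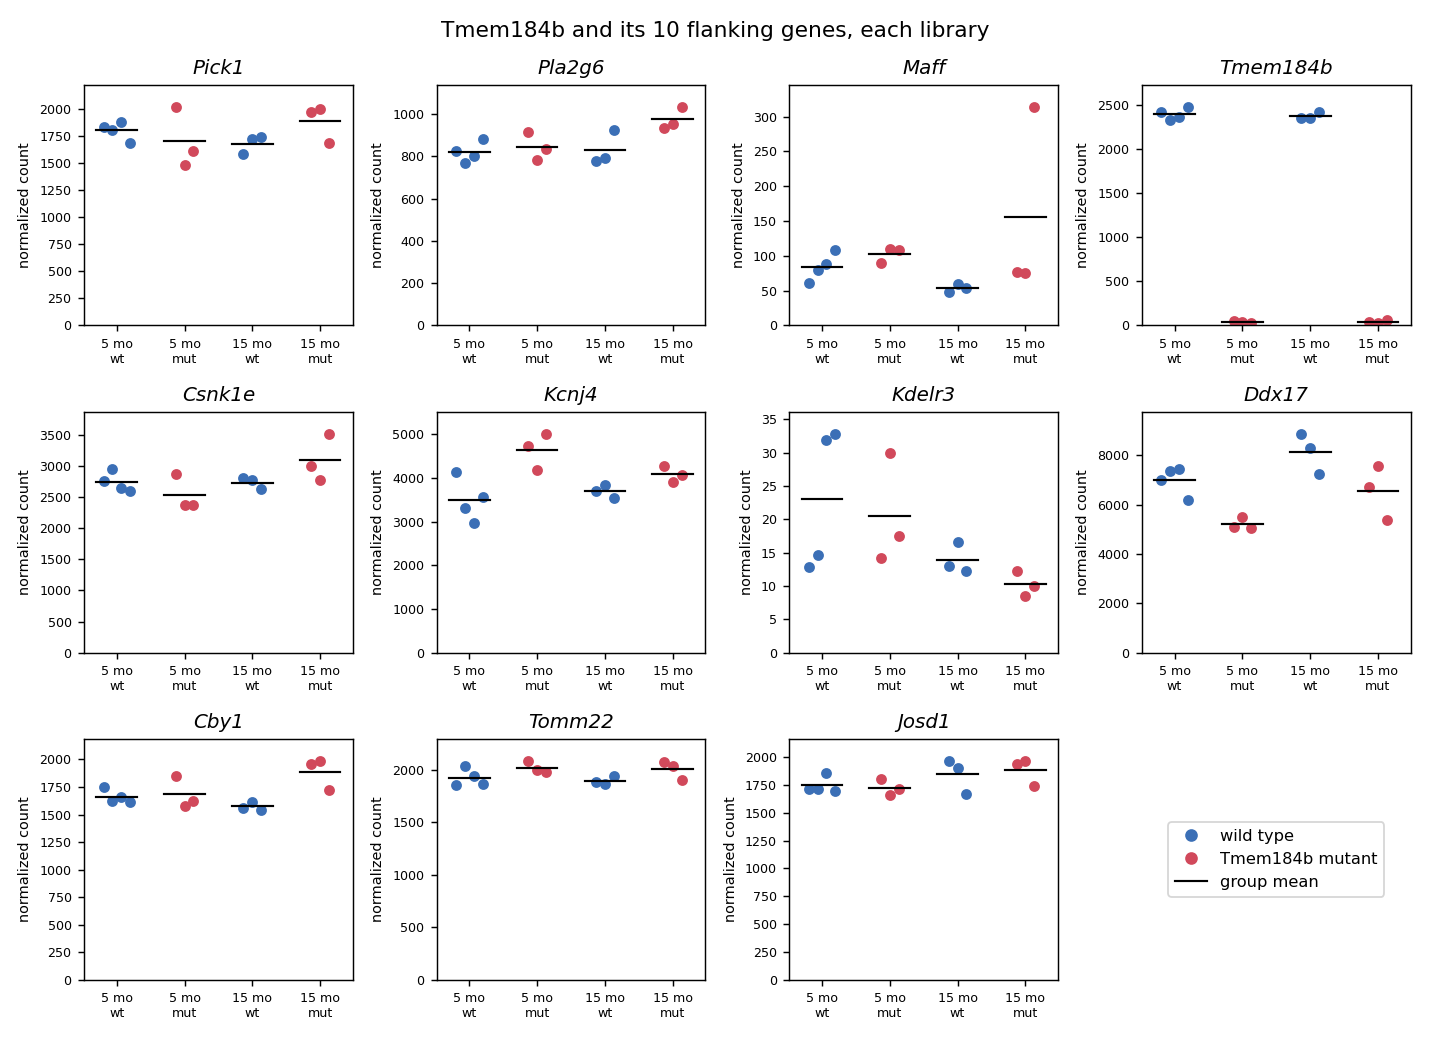
Normalized count (y axis, linear from 0) of Tmem184b and its 10 flanking genes, in chromosomal order, in each library at 5 and 15 months (mo), with wild types (wt) in blue, mutants (mut) in red and the group mean as a line. Tmem184b is near 0 in all mutants, Ddx17 mutants at 5 months (5039 to 5499) lie below the wild types (6208 to 7439), and Maff is at 314 in a single mutant at 15 months.

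Ddx17 encodes a DEAD-box RNA helicase that works in splicing, microRNA processing and transcription. Its normalized counts at 5 months were 7003, 7348, 7439 and 6208 in wild types, against 5081, 5499 and 5039 in mutants. Every mutant was below every wild type. Wild types averaged 6999 ± 560 (SD, n = 4). Mutants averaged 5206 ± 254 (SD, n = 3), which is 74.4% of wild type, with a log2 fold change of -0.42 (95% interval -0.60 to -0.25, limma adjusted p = 0.0320). Wild types at 15 months had 8868, 8282 and 7230 and the mutants 6717, 7578 and 5383, so that the groups overlapped by one mouse on each side, mutant replicate 2 and wild type replicate 3. The log2 fold change was -0.32 (95% interval -0.59 to -0.04, limma adjusted p = 0.127), and it did not pass the test. The call at 5 months was lost in some fits with a mouse left out. Without wild type replicate 1, 2 or 3 the limma adjusted p was 0.0753, 0.0882 and 0.104, and without mutant replicate 3 it was 0.113. In these fits 88, 107, 7 and 15 genes were called in all, against 354 with every mouse. The log2 fold change stayed between -0.48 and -0.39 over all 7 fits with a mouse left out. The close relative Ddx5, with which Ddx17 forms dimers, is given with the other relatives further on.

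Kcnj4 encodes an inwardly rectifying potassium channel of the Kir2 family that is abundant in forebrain neurons. At 5 months its normalized counts were 4141, 3310, 2960 and 3575 in wild types, against 4743, 4174 and 5009 in mutants. All 3 mutants were above all 4 wild types, by a narrow margin between mutant replicate 2 and wild type replicate 1. The summed neuron markers separated the genotypes in the same direction at this age (221730 to 238858 in wild types, with 241554 to 293236 in mutants). So did the astrocyte markers (28104 to 31235, with 37520 to 38821). Among wild types, replicate 1 had the highest Kcnj4 and the lowest neuron sum. Among mutants, replicate 3 had the highest Kcnj4 and replicate 1 the highest neuron sum. The part of these markers in the Kcnj4 values was not tested. The log2 fold change of 0.42 (95% interval 0.17 to 0.66) did not pass the adjusted test (limma adjusted p = 0.0717), but it did without mutant replicate 2 (0.49, adjusted p = 0.0470). In that fit 901 genes were called in all, against 354 with every mouse. In the older mice the wild types had 3709, 3845 and 3537 and the mutants 4279, 3915 and 4069. The groups again did not overlap, with a log2 fold change of 0.14 (limma adjusted p = 0.191) that turned to -0.05 once each library was adjusted for its trend with GC content and transcript length.

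Maff, the gene nearest to Tmem184b, encodes a small basic leucine zipper factor of the Maf family, which pairs with larger factors such as those of the NRF2 group and is induced by stress and by neuronal activity in many cells. At 5 months its normalized counts were 61.3, 79.1, 87.8 and 109 in wild types, against 89.4, 110 and 108 in mutants. The ranges overlapped, with a log2 fold change of 0.30 (95% interval -0.19 to 0.79, limma adjusted p = 0.482). Wild types at 15 months had 47.7, 59.9 and 53.8, and the mutants 76.3, 75.4 and 314. All 3 mutants were above the wild types, but the third stood at more than the sum of the other two. The log2 fold change was 1.17 (95% interval 0.11 to 2.24, limma adjusted p = 0.143), and over the fits with 1 mouse left out it ranged from 0.49 to 1.52, none of which was called. The lowest, 0.49, was the fit without mutant replicate 3.

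A list of 8 immediate early genes, which neurons transcribe within minutes of activity (Fos, Fosb, Junb, Egr1, Egr2, Arc, Nr4a1 and Npas4), was read beside Maff. At 15 months their summed normalized count was 10388, 10426 and 10607 in wild types, against 16947, 14423 and 29525 in mutants, so the library with the highest Maff also had the highest sum. At this age 4 of the 8 were called, all higher in mutants, against 6.02% of all genes called. At 5 months the sum was 12271, 19705, 21234 and 24755 in wild types, the same order as their Maff counts, and 13615, 9774 and 13426 in mutants, whose Maff counts were nevertheless in the upper part of the range. In those mice 1 of the 8 was called, lower in mutants, against 2.27% of all genes called. The mutant library at 314 was also the one with 28604 in choroid plexus markers, 5728 in endothelial markers (3761 to 4073 in wild types at that age) and 4142 in markers of meninges and fibroblasts (1466 to 2901 in those wild types). The part of these in the Maff value was not tested. Fewer cells of a type and less RNA per cell cannot be told apart in such bulk samples.

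**Figure D2:**
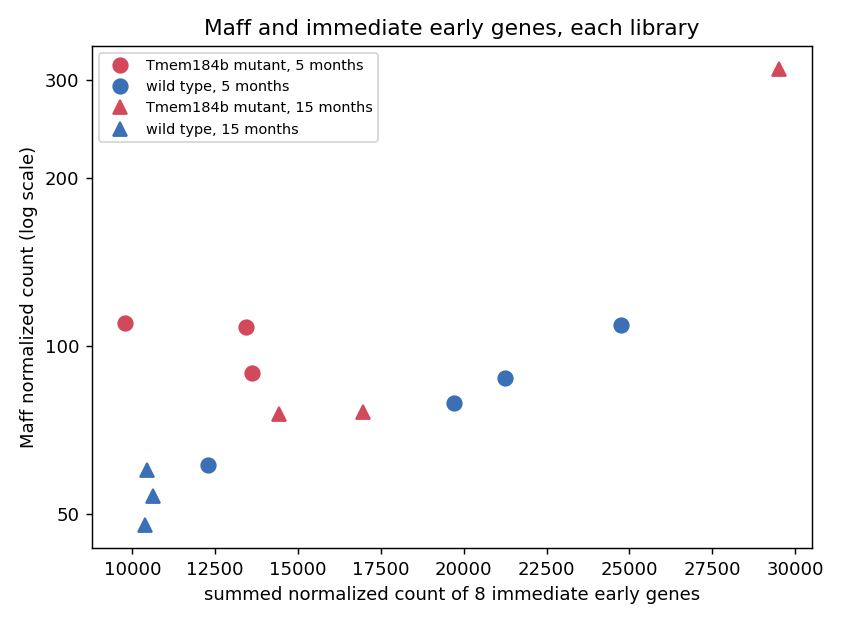
Maff normalized count (y axis, log scale) against the summed normalized count of 8 immediate early genes (x axis) in each of the 13 libraries, with circles for 5 months, triangles for 15 months, blue for wild types and red for mutants. The mutant at 15 months with a Maff count of 314 lies apart on both axes, and at 5 months the 3 mutants (89.4 to 110) lie above the wild type with the lowest sum (61.3). The ages were normalized separately.

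Csnk1e, the neighbour on the side of the Tmem184b start, encodes casein kinase 1 epsilon, which phosphorylates PERIOD proteins of the circadian clock and components of Wnt signalling. Its normalized counts at 5 months were 2759, 2952, 2650 and 2607 in wild types, against 2872, 2372 and 2380 in mutants. The third and second mutants were the lowest of the 7 and the first lay within the wild types. Wild types at 15 months had 2806, 2778 and 2631 and the mutants 3007, 2774 and 3520, again with an overlap. The log2 fold changes were -0.11 (95% interval -0.31 to 0.08, limma adjusted p = 0.506) and 0.17 (95% interval -0.03 to 0.38, limma adjusted p = 0.241).

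Pick1 and Pla2g6 are both linked to the neuronal membrane. Pick1 encodes a PDZ and BAR domain protein that binds AMPA receptor subunits and takes part in their endocytosis. Its normalized counts at 5 months were 1829, 1807, 1884 and 1686 in wild types, against 2020, 1479 and 1608 in mutants, so the mutants lay on both sides of the wild types. In the older mice the wild types had 1581, 1718 and 1737 and the mutants 1974, 2001 and 1681, with mutant replicate 3 inside the wild type range. The log2 fold changes were -0.09 (limma adjusted p = 0.667) and 0.16 (limma adjusted p = 0.245). Pla2g6 encodes a calcium-independent phospholipase A2 whose loss causes infantile neuroaxonal dystrophy. At 5 months it stood at 826, 771, 800 and 883 in wild types, with 915, 785 and 836 in mutants, which overlapped. Older mice had 779, 792 and 924 in wild types, against 935, 955 and 1035 in mutants. The mutants were all above the wild types, narrowly so for wild type replicate 3, and the log2 fold change of 0.23 (95% interval 0.02 to 0.44, limma adjusted p = 0.147) did not pass the test and was 0.04 after the GC content and length correction.

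Cby1, Tomm22 and Josd1 lie side by side at the far end. Cby1 encodes chibby, a small basal body protein that binds beta-catenin. At 5 months its normalized counts were 1748, 1626, 1662 and 1616 in wild types, against 1850, 1579 and 1620 in mutants. At 15 months they were 1564, 1618 and 1541 in wild types, against 1957, 1985 and 1722 in mutants, without overlap. The log2 fold changes were 0.01 (95% interval -0.16 to 0.19, limma adjusted p = 0.947) and 0.26 (95% interval 0.08 to 0.44, limma adjusted p = 0.0711). The second was called without mutant replicate 3 (0.32, adjusted p = 0.0278) and was 0.09 after the GC content and length correction. Without that mouse 1515 genes were called in all, against 935 with every mouse.

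Tomm22 encodes a receptor of the mitochondrial outer membrane import complex. Its normalized counts were among the least variable of the members, at 1859, 2032, 1943 and 1869 in wild types, against 2083, 1996 and 1984 in mutants at 5 months. Older mice had 1884, 1863 and 1942 in wild types, against 2076, 2036 and 1902 in mutants. The log2 fold changes were 0.07 (95% interval -0.09 to 0.23, limma adjusted p = 0.627) and 0.08 (95% interval -0.08 to 0.24, limma adjusted p = 0.481), and the genotypes overlapped at both ages. Josd1 encodes a deubiquitinating enzyme of the Josephin family. It stood at 1717, 1716, 1852 and 1693 in wild types, against 1803, 1658 and 1715 in mutants at 5 months. Older mice had 1963, 1901 and 1668 in wild types, against 1933, 1961 and 1743 in mutants. The log2 fold changes of -0.02 (95% interval -0.18 to 0.15, limma adjusted p = 0.935) and 0.03 (95% interval -0.16 to 0.22, limma adjusted p = 0.852) are the smallest of the members at 15 months and among the smallest at 5 months.

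Kdelr3 encodes a receptor that returns endoplasmic reticulum proteins from the Golgi, and it was the lowest of the members. Its normalized counts at 5 months were 12.8, 14.6, 31.9 and 32.8 in wild types, against 14.2, 29.9 and 17.5 in mutants. At 15 months they were 13.03, 16.6 and 12.3 in wild types, against 12.3, 8.55 and 9.999 in mutants. The log2 fold changes of -0.11 (95% interval -1.10 to 0.89, limma adjusted p = 0.925) and -0.41 (95% interval -1.39 to 0.57, limma adjusted p = 0.568) have wide intervals at this low level, and the genotypes overlapped at both ages.

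**Figure D3:**
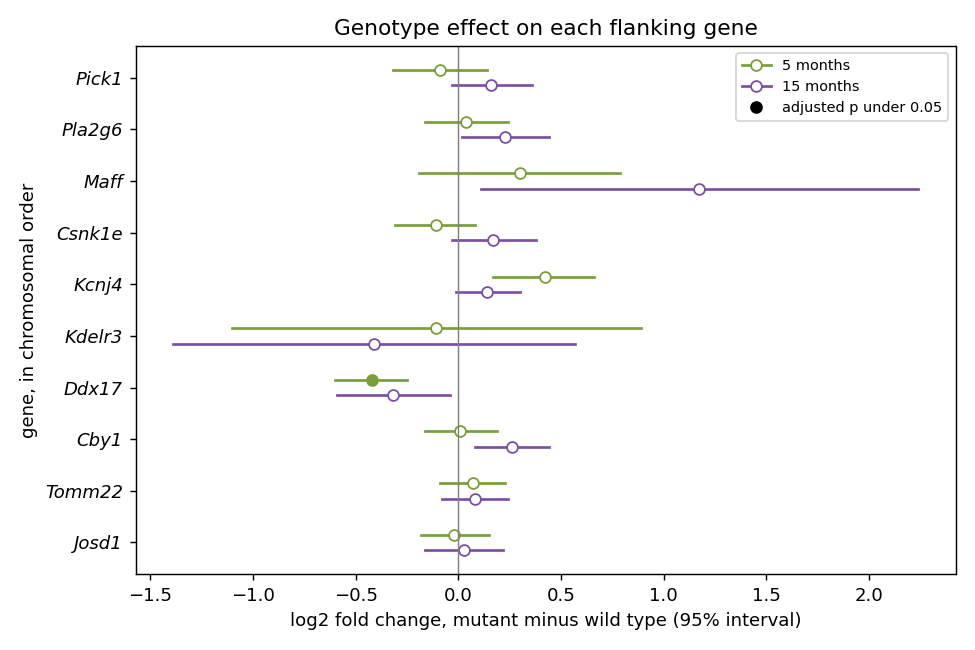
Log2 fold change, mutant minus wild type (x axis), of each flanking gene in chromosomal order (y axis) at 5 months (green) and 15 months (purple), with 95% intervals as lines and filled points for an adjusted p under 0.05. Only Ddx17 at 5 months, at -0.42, is filled, and Maff at 15 months (1.17) and Kdelr3 have the widest intervals.

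The genotype effects were also compared between the ages, over all 13 libraries. None of the 10 members was called for that difference by limma, where 1.75% of 15340 genes were, and 2 (Csnk1e and Cby1) had an unadjusted p under 0.05, against 21.1% of all genes. The effect at 15 months minus that at 5 months was 0.29 for Csnk1e (95% interval 0.01 to 0.56, limma adjusted p = 0.223) and 0.24 for Cby1 (95% interval 0.01 to 0.48, limma adjusted p = 0.213). Without mutant replicate 1 at 5 months, which was the highest mutant of that age for Pick1, Csnk1e and Cby1, all 3 were called (adjusted p = 0.0397, 0.0481 and 0.0475). In that fit 2111 genes were called for the difference in all, against 268 with every mouse. For Ddx17 the difference was 0.11 (95% interval -0.22 to 0.44, limma adjusted p = 0.737), so its effects at the 2 ages were not told apart.

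Levels between genes were compared as the normalized count per kb of the longest annotated transcript, in wild types only. At 5 months Kcnj4 (1625 ± 232, SD, n = 4) and Ddx17 (1479 ± 118) stood highest, followed by Cby1 (1450 ± 52.3), Tomm22 (1227 ± 51.2), Csnk1e (864 ± 48.6), Pick1 (704 ± 32.6), Josd1 (507 ± 21.1), Pla2g6 (244 ± 14.3), Maff (43.0 ± 10.1) and Kdelr3 (16.3 ± 7.63). The ranges of Kcnj4, Ddx17 and Cby1 overlapped from one to the next, and those of the later neighbours in this order did not. Tmem184b itself stood at 660 ± 17.9, between Pick1, whose range overlapped its own, and Josd1. The order of the 10 was the same at 15 months, where Kcnj4 (1718 ± 71.7, n = 3) and Ddx17 (1717 ± 175) overlapped and Cby1 (1373 ± 34.3) lay below both.

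A further 5 genes in the tables lie between the outermost members, none of them called in the fits with every mouse and without correction. Mir1943, a microRNA gene inside Tmem184b, was listed at 0 in all 13 libraries. Of the 4 tested at 5 months, 0 were called by limma and 2 had an unadjusted p under 0.05, against 2.27% and 20.5% of all genes. Slc16a8, a monocarboxylate transporter of retinal pigment and choroid plexus epithelium, had 198, 13.5, 128 and 376 in wild types, against 12.96, 15.0 and 25.1 in mutants at 5 months. The 3 wild types with high Slc16a8 were the 3 with high choroid plexus markers, and the log2 fold change of -2.59 (95% interval -4.47 to -0.71) had an adjusted p of 0.123 by limma. Without wild type replicate 2, the only wild type with a low value, it was called (-3.56, adjusted p = 0.00198). At 15 months the highest value, 80.7, was in mutant replicate 3, the library with the most choroid plexus marker counts, against 5.34 to 22.2 in the others. The part of these markers in the Slc16a8 values was not tested. Baiap2l2, which encodes a membrane-bending protein, had 122, 80.7, 96.5 and 104 in wild types, against 74.1, 60.9 and 56.9 in mutants at 5 months (-0.64, limma adjusted p = 0.120), and was called with the GC content and length correction (-0.74, adjusted p = 0.0479). Fam227a, divergent from Cby1, had 167, 131, 171 and 139 in wild types, against 107, 130 and 121 in mutants (-0.34, limma adjusted p = 0.272). Both genotypes were separate in these 2 genes at 5 months and overlapped at 15 months. Dmc1, a meiotic recombinase, was at 4.35 to 22.7 at 5 months (-0.96, limma adjusted p = 0.329) and under the filter at 15 months. At 15 months 0 of the 3 tested were called by limma, and none had an unadjusted p under 0.05.

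Beyond the cluster, the genes within 1 Mb of either end of Tmem184b were counted without Tmem184b. At 5 months 2 of 58 tested were called, Ddx17 and Rpl3, which is 3.45% against the 2.27% of all genes. Rpl3, a ribosomal protein of the large subunit with processed pseudogenes among which reads could be split, had 19529, 20278, 20003 and 21601 in wild types, against 27634, 24753 and 35014 in mutants (0.50, limma adjusted p = 0.0427), a call that was lost in 5 of the 7 fits with a mouse left out. The median log2 fold change within 1 Mb was 0.065, against 0.000 for all genes, and the median absolute log2 fold change was 0.156 against 0.155. At 15 months 1 of 57 was called, Cbx7, a chromobox subunit of Polycomb complexes, at 2116, 2105 and 2145 in wild types, against 2603, 2451 and 2609 in mutants (0.27, limma adjusted p = 0.0483). This call was lost in 4 of the 6 fits with a mouse left out and with the GC content and length correction (0.19, adjusted p = 0.309). The share called, 1.75%, lies below the 6.02% of all genes.

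At 15 months the genes around Tmem184b leaned to higher values in mutants. Within 1 Mb 44 of 57 tested genes had a log2 fold change above 0, against 8104 of 15540 over all genes. Their median was 0.179, against 0.017 for all genes, and among the 10 members it was 8 of 10 with a median of 0.155. The same held for wider windows, which include these genes, with a median of 0.169 within 5 Mb (202 genes) and 0.160 within 10 Mb (262 genes), and -0.023 on the rest of chromosome 15 (337 genes). With the GC content and length correction the median was 0.036 within 1 Mb, 0.031 for the members and 0.041 within 10 Mb, against 0.014 for all genes. With it 34 of 57 genes within 1 Mb and 6 of the 10 members were above 0, against 8190 of 15283 over all genes. At 5 months the median of the 10 members was -0.001 and 5 of them had a log2 fold change above 0.

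**Figure D4:**
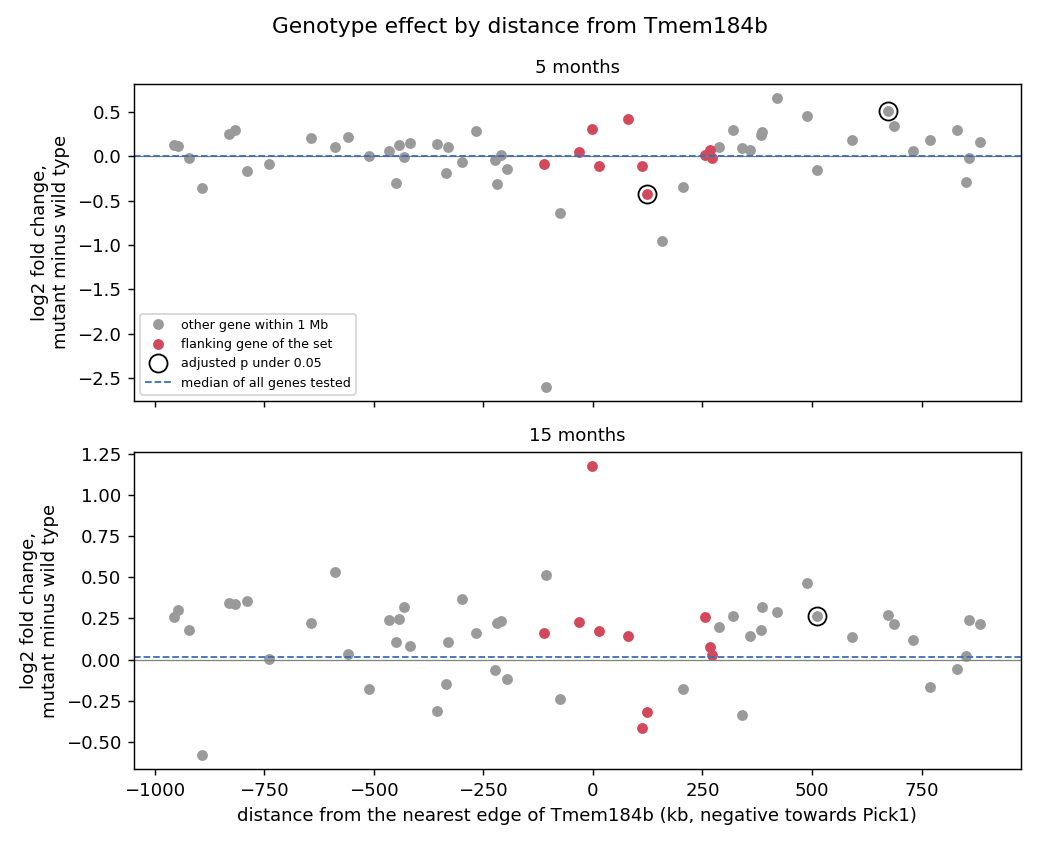
Log2 fold change, mutant minus wild type (y axis), of each tested gene within 1 Mb of Tmem184b against its distance from the nearest edge of that gene (x axis, kb), at 5 months (upper) and 15 months (lower), with the 10 flanking genes in red, called genes ringed and the median of all tested genes as a dashed line. Tmem184b is left out, 2 genes are ringed at 5 months and 1 at 15 months, and at 15 months most points (44 of 57) lie above 0.

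Relatives of the members that lie elsewhere in the genome were read for comparison, as a list of 18 paralogues and 9 genes of the mitochondrial import complex that holds Tomm22. At 5 months 1 of 18 paralogues was called, against 2.27% of all genes. It was Tmem184a, a relative of the disrupted gene, with 24.4, 15.3, 31.0 and 50.9 in wild types, against 3.34, 0 and 6.90 in mutants (-3.15, limma adjusted p = 0.0483). The call was lost in 5 of the 7 fits with a mouse left out (highest adjusted p = 0.134), with a pseudocount of 0.1 (adjusted p = 0.0889) and with quantile scaling (adjusted p = 0.0655). At this low level the log2 fold change itself ran from -4.38 with a pseudocount of 0.1 to -1.55 with one of 10. Its highest wild type was also that with the most choroid plexus marker counts (164775), and its lowest was that with the fewest (3213). Tmem184a was under the filter at 15 months, with 7.18, 2.26 and 3.12 in wild types, against 1.67, 2.17 and 19.1 in mutants. The highest of these, mutant replicate 3, was the library with the most choroid plexus marker counts at that age (28604). The part of those markers was not tested. At 15 months 2 of the 17 tested were called, both lower in mutants, against 6.02% of all genes. Leaving out Tmem184b, 625 of the 934 genes called at this age were lower in mutants. Ddx3x, another DEAD-box helicase, had 4875, 5005 and 4964 in wild types, against 3944, 3531 and 2936 in mutants (-0.52, limma adjusted p = 0.0320). Kcnj2, another Kir2 channel, had 430, 403 and 352 in wild types, against 293, 219 and 198 in mutants (-0.75, limma adjusted p = 0.0387). Neither call was kept with the GC content and length correction (adjusted p = 0.216 and 0.237) or without any one of the wild types (lowest adjusted p = 0.120 and 0.125). At 5 months the log2 fold changes of Ddx3x and Kcnj2 were 0.05 and -0.10 (limma adjusted p = 0.888 and 0.824). The wild types at 15 months were all female and the mutants of both sexes, and the part of sex in the calls of that age was not tested. Ddx5, the nearest relative of Ddx17, had 12755, 13237, 12840 and 13306 in wild types, against 10188, 12551 and 12157 in mutants at 5 months, all mutants below all wild types, with a log2 fold change of -0.17 (limma adjusted p = 0.275). At 15 months it overlapped between genotypes (-0.15, limma adjusted p = 0.217). The other KDEL receptors, Kdelr1 and Kdelr2, stood at 1211 and 350 normalized counts per kb in wild types at 5 months, against the 16.3 of Kdelr3, and neither was called at either age. Of the import complex, 0 of 8 tested were called at 5 months by limma, against 2.27% of all genes. At an unadjusted p under 0.05 there were 3 of the 8, against 20.5% of all genes. At 15 months 1 of 8 was called, against 6.02% of all genes. It was Tomm40, the channel, at 3484, 3835 and 3763 in wild types, against 4453, 4710 and 4265 in mutants (0.28, limma adjusted p = 0.0498). That call was lost in 5 of the 6 fits with a mouse left out and with the GC content and length correction (0.17, adjusted p = 0.376).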

How the data were processed

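Signal values, as the authors deposited them, are normalized counts of genes in each library, made with Salmon 0.11.1 (mm10, per the labels' processing notes) and DESeq2, in 2 tables, one per age. Each column was matched to one of the 13 mice by the header name, which is the description in that sample's labels. At the best step only 72.5% to 88.6% of low values fell within 0.1 of a whole multiple, under what recovering whole reads would need, and no count model was fitted. Depth is therefore unknown, and the number of mice limits the precision.

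Each age was fitted over the whole table with limma 3.58.1 in R 4.3.3 (eBayes with a trend), after a pseudocount of 1 and a filter at a mean of 10, two-sided. The difference of genotype effects between ages used all 13 libraries in one model with a mean for each group. Intervals are limma's, at 95%. The fits were checked on simulated data. Positions, transcript lengths and GC content come from GENCODE on GRCm38, matched by symbol for 24357 genes, and promoters from RefSeq (GRCm38.p6). Python 3.11.15, pandas 2.3.3, numpy 2.4.6, scipy 1.17.1 and matplotlib 3.10.9 were used.

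The members, the gene lists and the tests were chosen with earlier results of these data known. Genes named are Tmem184b, the 10 members, other genes of the tables between the outermost members, called genes within 1 Mb, and listed paralogues and import complex genes. Ddx5, Kdelr1 and Kdelr2 were named from those lists after their values were seen. Alternatives were pseudocounts of 0.1 and 10, no filter, a minimum mean of 100, trimmed-mean and quantile scaling, robust hyperparameters, a loess correction for GC content and length (span 0.3), the replicate number as a block with and without that correction, one fit of all libraries, each mouse left out, and other window sizes. The sex of each mouse is not in the labels and was no covariate.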

Additional observations from a re-analysis of the deposited data

Results flagged for a closer look

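Among 24 wild type groups of 4 mice at 5 months, one for each gene described outside the marker lists that had values above 0, a single value stood apart by Dixon's test. For Josd1 the highest wild type, at 1852, was separated from the other 3 (1693 to 1717) by a gap of 0.852 of the whole range. Chance alone gives about 1 such group in 20. Neither Tmem184b nor any of the 10 members had genotype effects that differed between the ages by the test of that difference.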

How the results depend on the processing

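Ddx17 kept its direction at both ages under every alternative, and Tmem184b kept its direction and its call. Of 604 alternative values of single named genes, 519 kept both their direction and their side of the threshold, 58 lost a call, 6 gained one and 21 turned direction. Only a gene called in the main fit (every mouse, no alternative setting) had a call to lose. The 58 losses were all of Ddx17, Rpl3 and Tmem184a at 5 months and of Cbx7, Ddx3x, Kcnj2 and Tomm40 at 15 months. Most of the 604 values had no call to lose, so the 519 do not measure how stable the calls were. The causes of these changes were not tested. Members called at 5 months numbered 0 with the replicate block and 2 in the fit of all 13 libraries (Ddx17 and Kcnj4), and members called at 15 months numbered 1 with the replicate block (Ddx17, adjusted p = 0.0409). With a mouse left out there were 0 to 2 at 5 months, 0 to 1 at 15 months and 0 to 3 for the difference between ages. Genes called at 5 months (354) numbered 854 with the GC content and length correction, 9 with the replicate block, 159 with both and 740 in the fit of all 13 libraries, and 7 to 901 with a mouse left out. At 15 months (935) they numbered 578 with no filter, 37 with the GC content and length correction, 1595 with the replicate block, 12 with both and 184 in the fit of all libraries, and 1 to 1526 with a mouse left out. For the difference between ages (268) they numbered 148 with the correction, 3 with the block, 11 with both, and 34 to 2111 with a mouse left out.

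Mice with one number are different animals, and their deviations correlated by -0.091 to 0.058 at 5 months and 0.013 to 0.164 at 15 months, so the numbers were not taken as pairs. Within 0.5, 5 and 10 Mb of Tmem184b, 1 of 36, 7 of 200 and 8 of 261 tested genes were called at 5 months. These shares are 2.78%, 3.50% and 3.07%, against 2.27% of all genes. With the GC content and length correction, a combination chosen after the data were seen, 5 of 58 within 1 Mb were called. That is 8.62%, against 5.57% of all genes with the correction. At 15 months 0 of 35, 2 of 78, 8 of 202 and 10 of 262 were called within 0.5, 2, 5 and 10 Mb. These shares are 0%, 2.56%, 3.96% and 3.82%, against 6.02% of all genes. With that correction it was 0 of 57 within 1 Mb, against 0.236% of all genes.

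Directions turned in values that were not called. At 5 months Kdelr3 was at 0.09 with the replicate block and 0.16 with block and correction, and Cby1 at -0.01 with quantile scaling. At 15 months, with the correction, alone and with the block, Kcnj4 was at -0.05, Josd1 at -0.04 and Fam227a at 0.02. With a mouse left out, the log2 fold changes at 5 months ranged from -0.22 to 1.9e-03 for Pick1, -0.02 to 0.09 for Pla2g6, -0.40 to 0.11 for Kdelr3, -0.06 to 0.06 for Cby1 and -0.05 to 0.01 for Josd1. At 15 months they ranged from -0.04 to 0.08 for Josd1, -0.40 to 1.44 for Slc16a8 and -0.31 to 0.03 for Fam227a.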
